A study of Mus musculus and Rattus norvegicus with 79 samples.

Results

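Ribosome biogenesis factors are the proteins that build ribosomes without staying in them. The 40 described here were taken from a list of gene symbols, and each gene was represented by the RefSeq transcript row with the highest summed count over the mouse tables, which hold 24790 genes. All 40 were found, and all 40 passed the filter on low counts in both mouse liver experiments. In the first experiment, 27 polyA libraries came from livers of C57BL/6 mice that received no virus, in 9 groups of 3: unfed at ZT10, and fed or unfed at ZT13, ZT14, ZT18 and ZT22. Zeitgeber time (ZT) gives the hour after the lights came on, light and dark lasting 12 h each, and all mice had been accustomed to eating only at night. In the second, 36 libraries depleted of ribosomal RNA came from livers of Nr3c1fl/fl mice, in 12 groups of 3. All of these mice carried floxed alleles of Nr3c1, the gene of the glucocorticoid receptor (GR), and were killed 10 days after injection of AAV-tbg-GFP (control) or AAV-tbg-CRE (recombinase). The tbg promoter is active in hepatocytes, so the other cells of CRE livers keep the gene. With either virus the ZT10 and ZT12 mice had not been fed, while those killed at the 4 later hours (ZT13, ZT14, ZT18, ZT22) had, so that hour and food change together between ZT12 and ZT13 in these mice.

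Ribosomes are assembled in the nucleolus, where RNA polymerase I copies the ribosomal DNA into a long precursor. Small nucleolar RNAs guide chemical modification of that precursor within box C/D and box H/ACA ribonucleoproteins, and a large processome folds and cuts it into the RNA of the 40S and 60S subunits. Ribosome synthesis is among the most costly activities of a cell, and in liver it is known to follow feeding, growth signals and the time of day.

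Libraries of C57BL/6 livers held 23.87 to 91.77 M counts (median 43.6 M), and those of Nr3c1fl/fl livers 34.64 to 78.76 M (median 53.4 M). The members together took 0.0952% to 0.165% and 0.0577% to 0.133% of the gene counts. Values are CPM, counts scaled to a common library size with TMM factors, and since transcript lengths were not used, levels are compared between samples and not between genes. The hepatocyte markers summed to 91151 to 126750 CPM in C57BL/6 livers and 50750 to 88384 CPM in Nr3c1fl/fl livers. A pair of C57BL/6 libraries stood apart by markers of bile duct or pancreas: fed ZT14 replicate 1, with 105 CPM of bile duct markers against 20.2 and 26.3 CPM in the other fed ZT14 libraries, and unfed ZT18 replicate 3, with 208 CPM of pancreatic markers against 8.85 and 10.4 CPM. Food comparisons that rest on them are given with and without them. In 6 Nr3c1fl/fl libraries the row NR_046233 took more than 20% of all counts. That row matched no gene of the annotation used and is called the unnamed row here. The origin of its counts was not examined. Nr3c1 itself averaged 164 to 261 CPM in the 6 GFP groups and 114 to 167 CPM in the 6 CRE groups. Labelled replicates are not tied to separate animals in words, so p-values measure the spread between these samples, which may be technical in part. In whole tissue, fewer cells of a type and less RNA per cell cannot be told apart.

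In livers without food, most members had their highest mean just after lights off, and nearly all had their lowest either in the afternoon or in the middle of the night. Over the 5 unfed hours 32 of 40 members differed (edgeR quasi-likelihood F-test, adjusted p under 0.05, the threshold for every call here), beside 42.5% of all 14744 genes tested. The group mean was highest at ZT13 for 26 members, beside 17.0% of all genes, and at ZT14 for 11, beside 15.2%. It was lowest at ZT10 for 20 members, beside 26.1% of all genes, and at ZT18 for 18, beside 15.4%. The exceptions at the top were Dkc1 and Rrp9, highest at ZT10, and Nop16, highest at ZT18. The smallest adjusted p-values of this F-test were 3.74e-06 for Nolc1, 6.29e-06 for Rrp12, 9.61e-06 for Nop16, 7.87e-05 for Nop58 and 8.61e-05 for Polr1a. Averaged over the 40 members, the log2 deviation of a library from the gene's mean over all 27 libraries was -0.35 to -0.22 at ZT10 and 0.01 to 0.25 at ZT13 without food. It was 0.04 to 0.10 at ZT14, -0.38 to -0.20 at ZT18 and -0.17 to -0.05 at ZT22. The ZT13 and ZT14 libraries thus all lay above those of the other unfed hours. Hour and time since the last meal change together in these livers and cannot be told apart.

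**Figure D1:**
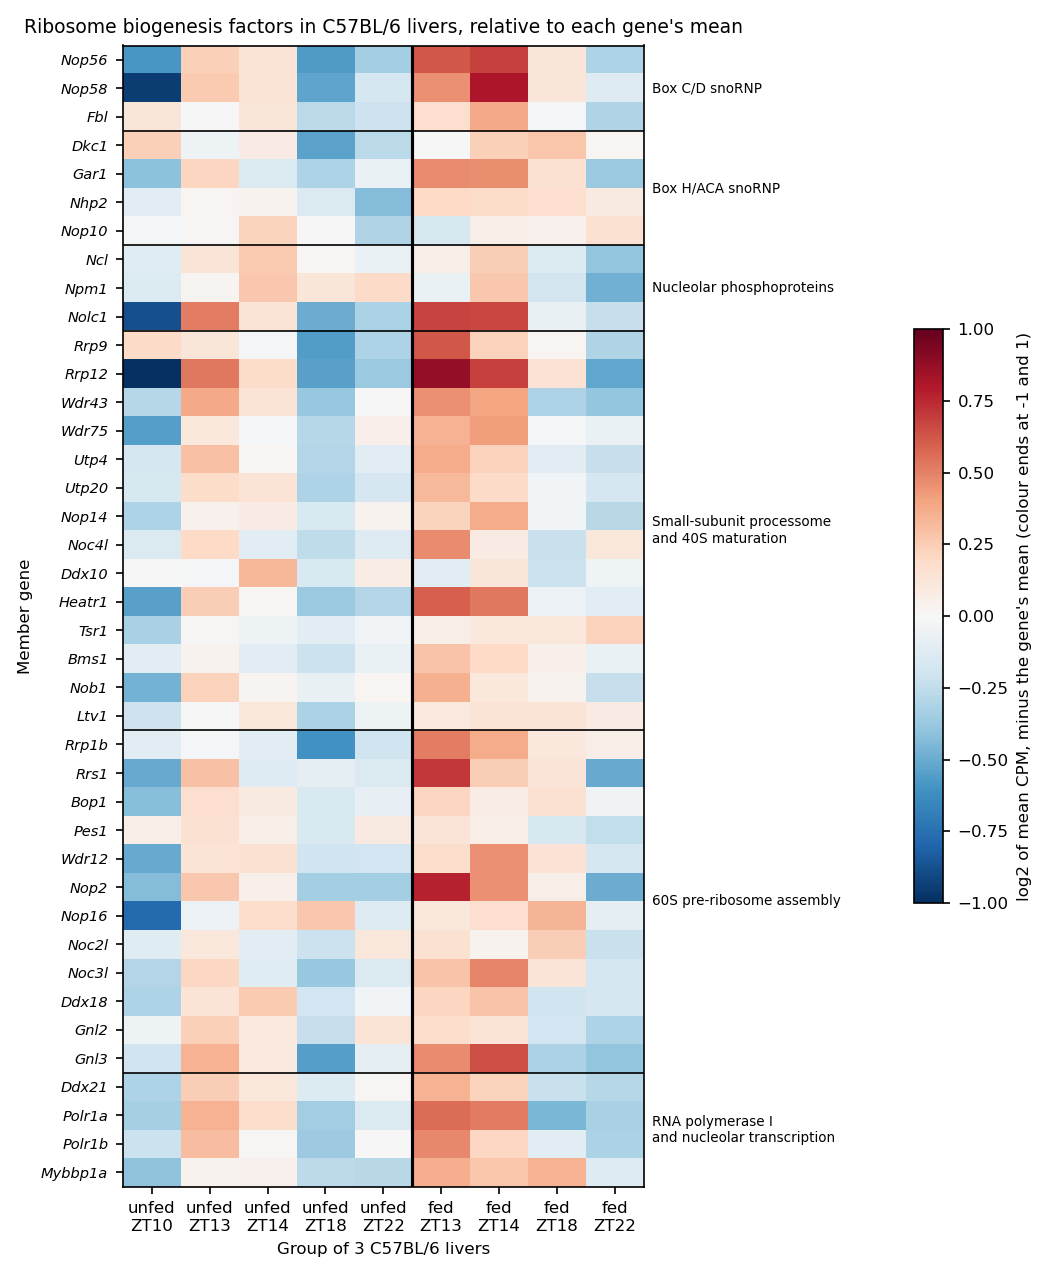
Each row is a member gene, grouped by role, and each column is a group of 3 C57BL/6 livers; colour gives the log2 of the group's mean CPM relative to the gene's mean over the 9 groups. Most rows are blue at unfed ZT10, red at ZT13 and ZT14 with or without food, and blue again at unfed ZT18 and fed ZT22.

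The step from ZT10 to ZT13 in unfed livers was upward for members of most roles. Of 40 members 24 rose and none was called lower, beside 9.74% of all genes called higher and 9.12% lower, with 28 members at an unadjusted p under 0.05 in either direction. DESeq2 called 26 members higher and 0 lower, beside 20.8% of all genes in either direction. The log2 difference was above 0 in 36 members, beside 47.9% of all genes. The median member log2 difference was 0.45, against -0.019 over all genes, and in 27 members every ZT13 library was above every ZT10 library, beside 16.4% of all genes. By role, 2 of 3 box C/D proteins, 1 of 3 nucleolar phosphoproteins, 9 of 14 40S factors, 8 of 12 60S factors and all 4 members tied to RNA polymerase I rose. The 4 box H/ACA proteins had a median of 0.08, and of these Gar1 had the largest difference, 0.62 with an adjusted p of 0.0722.

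Rrp12, a factor that carries precursors of both subunits towards export from the nucleus, had 8.03, 6.40 and 8.0 CPM at ZT10 and 24.9, 23.4 and 16.3 CPM at ZT13. The lowest ZT13 library was still more than the highest ZT10 library. This was a 2.89-fold rise (log2 1.53 ± 0.20 SE, n = 3 and 3, edgeR adjusted p = 7.57e-06). Nolc1, a chaperone of small nucleolar ribonucleoproteins, had 20.7, 23.7 and 25.1 CPM at ZT10 and 70.1, 69.5 and 42.9 CPM at ZT13. Again replicate 3 was the lowest at ZT13, yet the groups were far apart. The rise was 2.62-fold (log2 1.39 ± 0.17, edgeR adjusted p = 4.18e-06). Nop58, a core protein of the box C/D particle, had 12.3, 12.2 and 14 CPM at ZT10 and 28.6, 31.8 and 28.7 CPM at ZT13. Here all 3 libraries of each hour were close to each other, with a 2.32-fold rise (log2 1.21 ± 0.19, edgeR adjusted p = 6.87e-05). Its partner Nop56 rose by 0.81 on the log2 scale (adjusted p = 0.00258), whereas Fbl, the methyltransferase of the same particle, had -0.11 (adjusted p = 0.632).

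Among the 60S factors, Bop1, Pes1 and Wdr12 form 1 complex, which is needed for processing of the 60S rRNA precursor. Bop1 had 21.0, 22.7 and 24.4 CPM at ZT10 and 35.6, 37.4 and 29.7 CPM at ZT13, groups that did not overlap, and rose 1.51-fold (log2 0.59 ± 0.10, edgeR adjusted p = 0.000217). Wdr12 rose by 0.64 (adjusted p = 0.00228). Pes1 had 30, 34.3 and 29.8 CPM at ZT10 and 34.0, 35.9 and 30.2 CPM at ZT13. Those ranges overlap, and its log2 difference was 0.09 (adjusted p = 0.545). The remaining 60S factors that rose were Rrs1 (0.80), which helps to bring 5S RNA into the particle, Nop16 (0.72), Nop2 (0.71), an rRNA methyltransferase, Gnl3 (0.55), also called nucleostemin, Noc3l (0.50) and Gnl2 (0.29). Ddx18, an RNA helicase, had 0.44 (adjusted p = 0.0544).

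Of the 40S factors, those of the complex that joins the nascent transcript early rose: Heatr1 (0.80), Wdr43 (0.67), Wdr75 (0.65) and Utp4 (0.46). Nob1, the nuclease that makes the mature end of 18S RNA, rose by 0.70, and Nop14, Tsr1 and Utp20 rose by 0.34 to 0.35. Rrp9, a protein of the U3 particle, had -0.07 (adjusted p = 0.839), and the helicase Ddx10 had -0.02 (adjusted p = 0.936). Polr1a, the largest subunit of RNA polymerase I, had 25.7, 26.6 and 26.2 CPM at ZT10 and 46.3, 43.9 and 35.9 CPM at ZT13, with no overlap, and rose by 0.68 (adjusted p = 0.000297). Polr1b, its partner in the catalytic centre, rose by 0.53, Ddx21, a helicase active in rRNA transcription and processing, by 0.55, and Mybbp1a, a nucleolar MYB-binding protein, by 0.43.

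By ZT18 without food, these differences had reversed for many members. From ZT13 to ZT18, 22 of 40 members fell and none was called higher, beside 7.62% of all genes called lower and 8.44% higher, with 30 members at an unadjusted p under 0.05. DESeq2 called 24 members lower and 0 higher, beside 19.5% of all genes in either direction. Only 2 members had a difference above 0, beside 50.5% of all genes. The median was -0.39, against 0.004 over all genes, and in 23 members every ZT18 library was below every ZT13 library, beside 14.5% of all genes. Gnl3 had 39.5, 39.7 and 35.8 CPM at ZT13 and 21.1, 18.5 and 22.1 CPM at ZT18, wide apart, and fell by 0.90 on the log2 scale (± 0.16, edgeR adjusted p = 0.00026). Rrp12 had 14.5, 7.98 and 8.22 CPM at ZT18, so that its replicates 2 and 3 were back in the ZT10 range, and fell by 1.09 (± 0.20, adjusted p = 0.000373). Nolc1, with 36.9, 23.2 and 30.3 CPM at ZT18, fell by 1.02 (± 0.17, adjusted p = 0.000192). Polr1a returned to 25.6, 23.4 and 28.9 CPM and fell by 0.69 (± 0.12, adjusted p = 0.000311). Rrs1 was not called at -0.39 (adjusted p = 0.0911), but without unfed ZT13 replicate 3, its lowest ZT13 library, the difference was -0.57 (adjusted p = 0.0123). Nop16 went the other way by value, with 35.6, 30.6 and 23.5 CPM at ZT13 and 45.0, 35.9 and 32.2 CPM at ZT18. Those groups overlap (log2 0.33, adjusted p = 0.0896). The comparisons of ZT13 with ZT10 and of ZT18 with ZT13 share the unfed ZT13 libraries.

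The difference between ZT10 and ZT13 was also seen in the GFP and CRE livers, which share no library with the C57BL/6 livers, but there the ZT13 mice had eaten. In GFP livers 22 of 40 members rose and none was called lower, beside 7.64% of all 15712 genes tested called higher and 6.64% lower, with 27 members at an unadjusted p under 0.05. DESeq2 called 22 members higher and 0 lower, beside 15.7% of all genes in either direction. In CRE livers 19 rose, beside 8.23% of all genes, and Dkc1 fell, beside 8.55%. The medians were 0.46 and 0.39, against 0.013 and -0.006 over all genes. In 26 members every GFP ZT13 library was above every GFP ZT10 library, beside 16.3% of all genes, and in 23 members this held in CRE livers, beside 15.6%. The ZT10 libraries of GFP livers had 23.8% to 28.2% of their counts in the unnamed row NR_046233, against 2.3% to 4.55% at ZT13, and those of CRE livers 8.0% to 28.5% against 4.18% to 5.1%. With that share as a covariate, 17 members in either direction were called in GFP livers, beside 7.76% of all genes in place of 14.3%, and 20 in CRE livers, beside 14.5% in place of 16.8%. The count was also sensitive to single libraries: in GFP livers it was 13 without unfed ZT10 replicate 1 and 14 without replicate 3. In CRE livers it went from 20 in either direction to 13 without unfed ZT10 replicate 3, fed ZT13 replicate 1 or fed ZT13 replicate 2. Calls upward in all of unfed C57BL/6, GFP and CRE livers were shared by 16 members, beside 2.47% of the 14638 genes tested in both tables. They were Bop1, Ddx21, Heatr1, Nob1, Nolc1, Nop14, Nop2, Nop56, Nop58, Polr1a, Polr1b, Rrp12, Rrs1, Utp4, Wdr12 and Wdr43.

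Rrp12 had 6.17, 9.0 and 8.35 CPM in GFP livers at ZT10 and 24.9, 20.2 and 16.6 CPM at ZT13 (log2 1.41 ± 0.22, edgeR adjusted p = 0.000114). In CRE livers it had 9.03, 7.05 and 5.98 CPM and then 22.4, 21.4 and 14.3 CPM (log2 1.41 ± 0.22, adjusted p = 5.74e-05). The ZT10 and ZT13 libraries were thus separate with either virus, and the changes were of equal size as printed. Nolc1 rose from 14.6, 19.3 and 15.6 CPM to 39.5, 41.2 and 29.1 CPM in GFP livers (1.16 ± 0.17, adjusted p = 5.68e-05) and from 17.2, 11.0 and 16.4 CPM to 26.4, 26.0 and 24.8 CPM in CRE livers (0.81, adjusted p = 0.00133). In GFP livers Nop14, a processome protein, rose from 14.1, 12.2 and 11.7 CPM to 22.2, 19.8 and 20.0 CPM (0.70 ± 0.12, adjusted p = 0.000162). All of its ZT13 libraries lay above its ZT10 libraries. Rrs1 in CRE livers had 7.72, 8.94 and 6.42 CPM and then 19.8, 15.6 and 15.0 CPM (1.11 ± 0.23, adjusted p = 0.00132). Nop2 in CRE livers had 12.5, 11.8 and 12.2 CPM at ZT10, a narrow range, and then 26.6, 24.7 and 18.6 CPM (0.94 ± 0.19, adjusted p = 0.000995). Bop1 in CRE livers rose by 0.64 (± 0.12, adjusted p = 0.000526), and Polr1a in GFP livers by 0.68 (± 0.11, adjusted p = 0.000141).

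Dkc1, the pseudouridine synthase of the box H/ACA particle, was the 1 member called in the opposite direction, with 11.5, 12.0 and 13.8 CPM in CRE livers at ZT10 and 9.25, 8.06 and 9.22 CPM at ZT13. The groups do not overlap, and it fell by 0.50 (± 0.15, edgeR adjusted p = 0.0189), but the adjusted p was 0.103 without CRE unfed ZT10 replicate 3 and 0.102 without CRE fed ZT13 replicate 2. In GFP livers its difference was -0.08 (adjusted p = 0.783). The difference of the ZT10 to ZT13 step between CRE and GFP livers was called for 0 members in edgeR and 0 in DESeq2, beside 0.0191% of all genes, with 1 member at an unadjusted p under 0.05. Its median over members was -0.07.

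**Figure D2:**
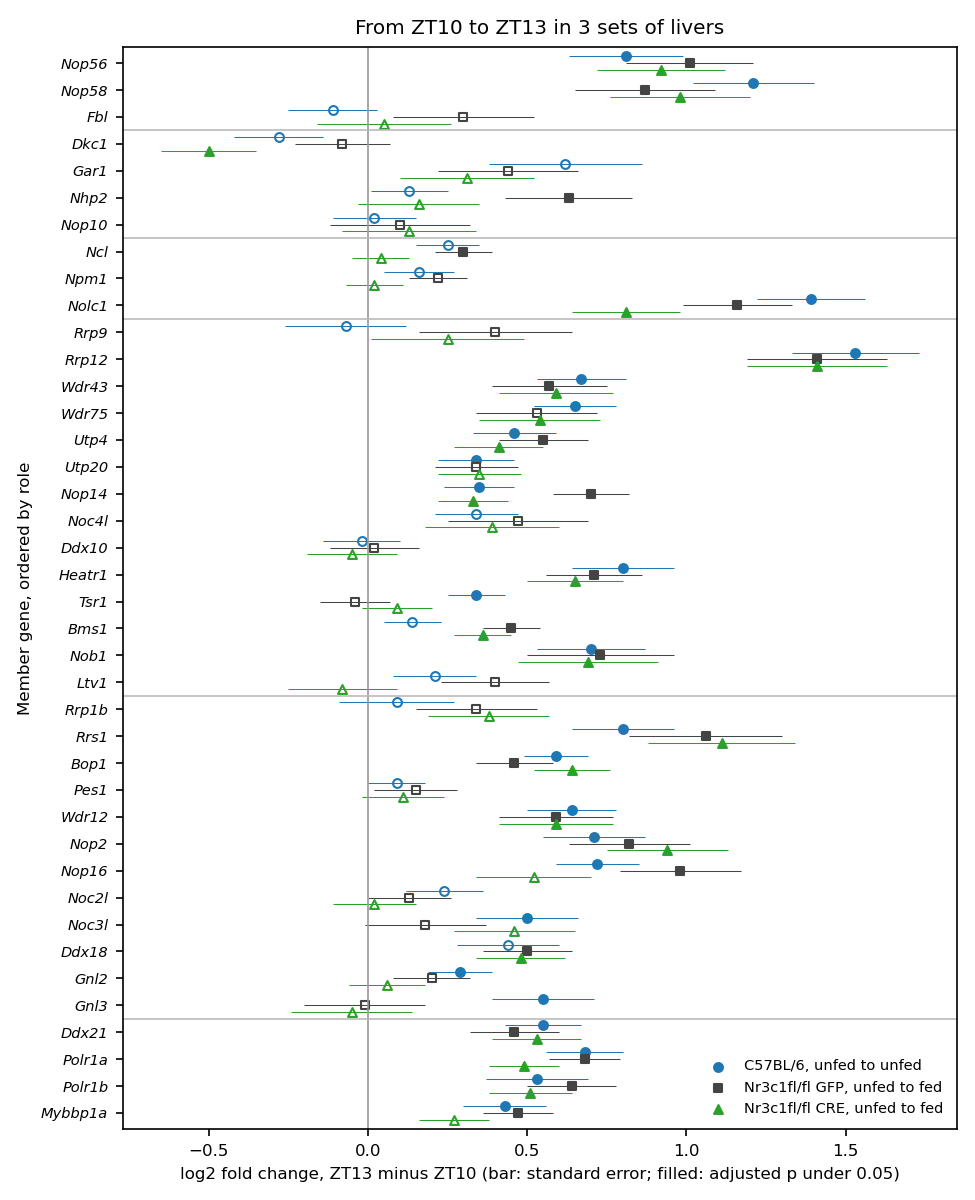
Each point is a member: the log2 difference from ZT10 to ZT13 in unfed C57BL/6 livers and in GFP and CRE livers, where the ZT13 mice had been fed. Nearly all points lie above 0, with Rrp12 between 1.41 and 1.53 in the 3 kinds of liver and Dkc1 below 0 in each.

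All members with a start in the table, whether called or not, were looked at for shared letters at their start sites. RefSeq promoter windows on GRCm38.p6, from 250 bases before to 50 bases after a gene's start, were present for 34 members, with 38 windows. The E-box CACGTG, the core motif of MYC, CLOCK and USF proteins, stood in 8 of 38 windows (21.1%), beside 7.15% of 32851 windows of all genes and 9.44% of the 14666 windows of tested genes. The letters read the same on both strands. In 7 of these 8 windows (87.5%) the E-box lay at or after the start site, beside 13.7% of the 1549 E-boxes in windows of tested genes. The 7 sites are shown to let a reader see that placement, each as 30 bases around the E-box, 5′ to 3′ on the gene's strand, with the E-box in capitals.
Pes1, chr11:3963965-3963994, plus strand, first E-box base 2 bases after the start: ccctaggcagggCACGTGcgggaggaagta
Utp4, chr8:106893643-106893672, plus strand, 15 bases after: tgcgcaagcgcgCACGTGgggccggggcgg
Wdr43, chr17:71616220-71616249, plus strand, 17 bases after: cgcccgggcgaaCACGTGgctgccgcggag
Tsr1, chr11:74898092-74898121, plus strand, 24 bases after: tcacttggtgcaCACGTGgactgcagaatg
Ltv1, chr10:13193092-13193121, minus strand, 28 bases after: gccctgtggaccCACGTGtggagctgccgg
Utp20, chr10:88826765-88826794, minus strand, 37 bases after: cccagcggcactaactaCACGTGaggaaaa
Mybbp1a, chr11:72441347-72441376, plus strand, 40 bases after: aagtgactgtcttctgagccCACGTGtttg

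The eighth, Nop2, carried its E-box 60 bases before the start, close to an ETS motif (CCGGAAG), and the 250 bases before its start are shown because both motifs stand in capitals there, at chr6:125131633-125131882 on the plus strand.
Nop2: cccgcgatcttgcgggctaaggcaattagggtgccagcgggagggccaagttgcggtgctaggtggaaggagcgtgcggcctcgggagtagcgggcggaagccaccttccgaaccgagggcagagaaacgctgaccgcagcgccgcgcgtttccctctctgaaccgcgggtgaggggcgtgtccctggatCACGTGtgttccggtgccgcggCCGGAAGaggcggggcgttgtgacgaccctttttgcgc
On both strands, the ETS motif CCGGAAG stood in 13 of 38 member windows (34.2%), beside 15.8% of windows of tested genes, the E-box variant CACGCG in 10 (26.3%), beside 15.9%, and the GC box GGGCGG in 26 (68.4%), beside 58.5%. TATAAA stood in 2 windows, those of Dkc1 and Pes1 (5.26%), beside 7.77%. Of the 8 genes with CACGTG, Utp4, Wdr43 and Nop2 were called higher at ZT13 than at ZT10 in all 3 kinds of liver, whereas Pes1 and Ltv1 were called in none of them. A match is a run of letters and not a measured binding site.

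GR peaks in liver at ZT10 were compared with the starts of members. The authors' 3 peak lists give positions without heights. Of 34 members with a known start, 2 had a peak of the concordant list of 5772 peaks within 25 kb (5.88%), beside 21.3% of 11591 tested genes. These were Dkc1, whose start was 133 bases from the peak, and Nop16, at 6.7 kb. In the list called against input, 13 members had a peak within 25 kb (38.2%), beside 52.2% of genes, and in the list called against chromatin of CRE livers 21 did (61.8%), beside 62.0%. Within 1 kb of the start the shares were 2.94% of members beside 2.81% of genes in the concordant list, 8.82% beside 11.1% against input, and 32.4% (11 members) beside 25.5% against CRE chromatin. The start of Polr1a was 0.1 kb from a peak of the last list, 26.8 kb from one called against input and 82.3 kb from one of the concordant list.

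In fed livers most members were lower at the end of the night than at its start. Over the 4 fed hours 31 of 40 members differed (edgeR F-test), beside 37.2% of all genes. The group mean was highest at ZT13 for 22 members (25.7% of all genes) and at ZT14 for 12 (21.1%), and it was lowest at ZT22 for 33 (24.6%). Dkc1, Nop16, Noc2l and Ltv1 were highest at ZT18, and Nop10 and Tsr1 at ZT22. From ZT13 to ZT22, 29 of 40 members fell and none was called higher, beside 12.8% of all genes called lower and 13.9% higher, with 34 members at an unadjusted p under 0.05. DESeq2 called 32 members lower and 0 higher, beside 28.6% of all genes in either direction. A difference above 0 was seen in 4 members, beside 53.9% of all genes. The median was -0.48, against 0.037 over all genes, and in 33 members every ZT22 library was below every ZT13 library, beside 19.4% of all genes. All 3 box C/D proteins, all 3 phosphoproteins, all 4 polymerase I members, 11 of 14 40S factors, 7 of 12 60S factors and 1 of 4 box H/ACA proteins fell.

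Nop2, the rRNA methyltransferase, had 50.9, 51.6 and 43.4 CPM in fed livers at ZT13 and 22.5, 15.7 and 22.5 CPM at ZT22 (-1.27 ± 0.16, edgeR adjusted p = 1.09e-06). Its highest ZT22 library, at 22.5 CPM, was far below its lowest ZT13 library. Rrs1 had 48.6, 47.5 and 48.3 CPM and then 24.2, 18.9 and 19.2 CPM, 2 tight groups (-1.21 ± 0.16, adjusted p = 2.22e-06). Rrp12 had 25.1, 30 and 27.2 CPM and then 11.7, 7.28 and 12.2 CPM (-1.41 ± 0.20, adjusted p = 6.05e-06). Polr1a went from 43.2, 56.0 and 46.5 CPM to 29.9, 24.0 and 25.1 CPM (-0.88 ± 0.12, adjusted p = 5.8e-06). These 4 were clear of overlap at the 2 hours. Gnl3 fell by 0.87 and Wdr43 by 0.85, while Rrp1b at -0.45 (adjusted p = 0.0546) and Ddx18 at -0.38 (adjusted p = 0.0844) were not called. By F-test over the fed hours the smallest adjusted p-values were those of Polr1a (1.12e-07), Nop2 (4.29e-06), Gnl3 (4.81e-06), Wdr43 (1.55e-05) and Rrs1 (1.77e-05).

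Few members were called for food early in the night, when few of all genes were called either. At ZT13, when fed and unfed livers were taken at the same hour, 0 of 40 members were called in edgeR and 0 in DESeq2, beside 1.1% of all genes (0.631% lower), with 9 members at an unadjusted p under 0.05. Members were nonetheless mostly higher by value: 34 of 40 had a log2 difference above 0, beside 48.2% of all genes, with a median of 0.15 against -0.01. Unfed replicate 3 was low over the members together. Their mean log2 deviation was 0.25, 0.24 and 0.01 in unfed replicates 1 to 3, and 0.34, 0.38 and 0.27 in the fed ones. The part of that library in the difference was not tested. Every fed library was above every unfed library in 12 members, beside 8.15% of all genes, and the reverse held in 0, beside 9.24%. The largest differences were those of Rrp1b, a nucleolar protein of the 60S pathway, at 0.52 ± 0.17 (adjusted p = 0.156), and of Rrp9 at 0.51 ± 0.19 (adjusted p = 0.214). Rrp9 had 12.1, 10.4 and 7.94 CPM unfed and 15.1, 15.0 and 13.1 CPM fed, with no overlap. Nolc1, at 70.1, 69.5 and 42.9 CPM unfed and 71.4, 69.1 and 63.4 CPM fed, stood at like values with and without food except in 1 unfed library.

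At ZT14, 4 of 40 members were higher in fed livers and none was called lower, beside 2.26% of all genes called higher and 3.38% lower (5.64% in either direction). The 4 were Nop58, Noc3l, Gnl3 and Bms1. The median was 0.23, against 0.006 over all genes, and fed libraries were all above unfed ones in 22 members, beside 12.8% of all genes. Nop58 had 25.4, 25.8 and 30.5 CPM unfed and 39.3, 48.1 and 43.1 CPM fed (0.67 ± 0.19, edgeR adjusted p = 0.032), with an adjusted p of 0.0701 to 0.127 without unfed replicate 1 or 2 or fed replicate 2 or 3. Noc3l, a factor of early 60S assembly, had 8.76, 10.8 and 10.9 CPM unfed and 18.7, 14 and 13.7 CPM fed (0.60 ± 0.16, adjusted p = 0.0254). The groups did not overlap, but fed replicate 1, the library with bile duct markers, was the highest for Noc3l, and without it the difference was 0.47 (adjusted p = 0.146). Gnl3 had 31.3, 31.9 and 33.5 CPM unfed and 48.8, 47.8 and 45.3 CPM fed (0.55 ± 0.16, adjusted p = 0.0363). Bms1, a GTPase of the processome, had 31.4, 34.1 and 32.1 CPM unfed and 40.3, 40.4 and 40.6 CPM fed (0.31 ± 0.09, adjusted p = 0.0484). Both were well separated, yet Gnl3 and Bms1 were each above an adjusted p of 0.05 without any 1 of the 6 libraries. Over all members the count was 1 without fed ZT14 replicate 1 and unfed ZT18 replicate 3, and 0 without unfed ZT14 replicate 1 or 2. It was 8 in DESeq2, beside 7.6% of all genes in place of 5.64%, and 11 when only these 6 libraries were fitted. Nop56 at 0.56 (adjusted p = 0.0731) and Gar1 at 0.60 (adjusted p = 0.163) were not called.

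More members passed the test at ZT18, but so did more of all genes. There 13 of 40 members were higher in fed livers and Npm1 was lower, beside 13.3% of all genes called higher and 13.1% lower, with a median of 0.26 against -0.002 over all genes. Box C/D proteins Nop56 (0.70) and Nop58 (0.65), box H/ACA proteins Dkc1 and Nhp2, 40S factors Rrp12 (0.70), Rrp9 (0.57), Ltv1 (0.46) and Bms1 (0.27), 60S factors Rrp1b, Noc2l, Noc3l (0.50) and Bop1 (0.31), and Mybbp1a made up the 13. Fed libraries were all above unfed ones in 17 members, beside 19.7% of all genes, and 33 members had a difference above 0, beside 49.7%.

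Dkc1 had 9.15, 12.8 and 11.6 CPM unfed at ZT18 and 21.7, 20.0 and 17.3 CPM fed. All fed livers were above all unfed ones, and the difference was 0.81 ± 0.15 on the log2 scale (n = 3 and 3, edgeR adjusted p = 0.000205). Mybbp1a had 56.9, 48.9 and 51.6 CPM unfed and 86.9, 71.8 and 81.1 CPM fed, again apart (0.61 ± 0.12, adjusted p = 0.000734). Rrp1b had 4.44, 3.92 and 5.24 CPM unfed and 9.22, 6.86 and 6.16 CPM fed (0.71 ± 0.18, adjusted p = 0.00438). Noc2l, a partner of Noc3l, had 30.3, 28.3 and 33.7 CPM unfed and 51.1, 41.4 and 34.5 CPM fed (0.46 ± 0.12, adjusted p = 0.00617). In both of these fed replicate 1 was the highest, and without it the differences were 0.53 (adjusted p = 0.0534) for Rrp1b and 0.31 (adjusted p = 0.0817) for Noc2l. Npm1, the histone and ribosome chaperone nucleophosmin, had 93.1, 96.0 and 113 CPM unfed and 92.0, 83.7 and 68.9 CPM fed. It fell by 0.30 (± 0.11, adjusted p = 0.0459), but by 0.20 without unfed replicate 3 (adjusted p = 0.278), the library with pancreatic markers. Over all members the count of 14 became 9 without fed ZT14 replicate 1 and unfed ZT18 replicate 3, 7 without unfed ZT18 replicate 2, 5 without fed ZT18 replicate 1 and 9 when only these 6 libraries were fitted. Nolc1 at 0.43 (adjusted p = 0.0694) and Gar1 at 0.47 (adjusted p = 0.154) were not called.

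**Figure D3:**
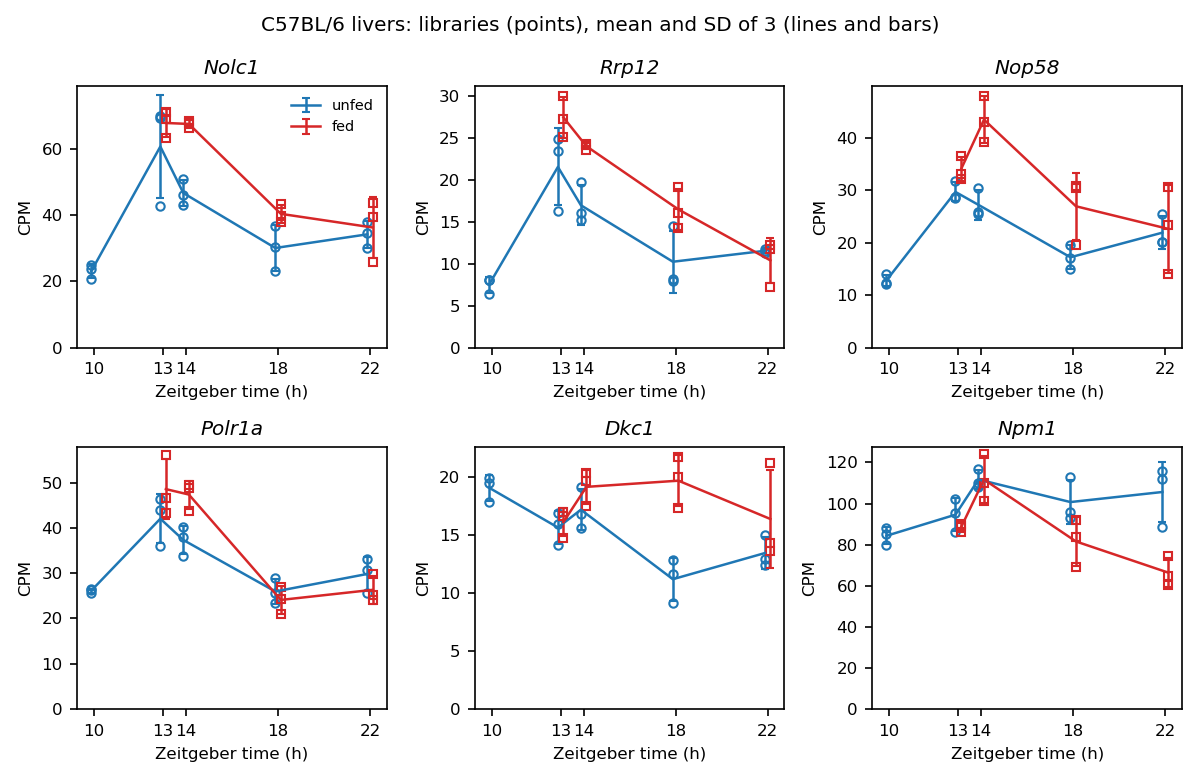
CPM against Zeitgeber time in C57BL/6 livers for single members; points are libraries, lines join the means of 3 libraries and bars give the SD, with fed and unfed livers in different colours. Nolc1 and Rrp12 were low in unfed livers at ZT10, with 20.7 to 25.1 CPM and 6.40 to 8.03 CPM, and highest at ZT13, while Dkc1 differed by food at ZT18 and Npm1 at ZT18 and ZT22.

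At ZT22 calls went both ways, among members as among all genes. In fed livers 3 of 40 were higher and 6 were lower, beside 10.5% of all genes called higher and 9.77% lower, and the median was -0.11 against -0.013 over all genes. The difference was above 0 in 16 members, beside 48.4% of all genes. Among the 3 that rose were 2 of the 4 box H/ACA proteins, Nhp2 and Nop10. Nhp2, which binds the guide RNA, had 12.8, 15.9 and 13.1 CPM unfed and 21.9, 17.6 and 20.5 CPM fed, without overlap (0.52 ± 0.12, edgeR adjusted p = 0.00214). Nop10, the small protein that joins the synthase to it, had 23.9, 26.7 and 22.3 CPM unfed and 32.1, 35.9 and 32.0 CPM fed (0.45 ± 0.13, adjusted p = 0.0134), and its adjusted p was 0.064 without unfed ZT22 replicate 3 and 0.0586 without fed ZT22 replicate 2. Tsr1, a factor of late 40S maturation, was higher by 0.26 (adjusted p = 0.0471), and by 0.16 (adjusted p = 0.267) without unfed ZT22 replicate 2.

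The 6 that fell at ZT22 were the phosphoproteins Npm1 and Ncl, the 60S factors Gnl2 and Pes1, and the 40S factors Wdr43 (-0.40) and Nop14 (-0.32). Npm1 had 88.8, 112 and 116 CPM unfed and 60.3, 64.6 and 74.4 CPM fed (-0.67 ± 0.11, edgeR adjusted p = 0.000112). Its lowest unfed library was above its highest fed library. Gnl2, a nucleolar GTPase, had 30.2, 32.1 and 36.2 CPM unfed and 26.1, 21.5 and 24.5 CPM fed, also apart (-0.45 ± 0.10, adjusted p = 0.00153). Pes1 fell by 0.33 (± 0.09, adjusted p = 0.0111), with adjusted p = 0.0748 without unfed replicate 2 and 0.0626 without fed replicate 2. Ncl, nucleolin, had 175, 189 and 210 CPM unfed and 140, 138 and 179 CPM fed, which overlap by fed replicate 3. It fell by 0.33 (± 0.10, adjusted p = 0.0229), with an adjusted p of 0.0556 to 0.154 without unfed replicate 2 or 3 or without fed replicate 1 or 2. The count of 9 became 4 without unfed ZT22 replicate 3 or fed ZT22 replicate 2, 5 without unfed replicate 2 or fed replicate 1 and 4 when only these 6 libraries were fitted. Rrs1 at -0.36 (adjusted p = 0.115) and Noc2l at -0.33 (adjusted p = 0.0556) were not called. Markers of endothelial cells were lower in fed livers too. They summed to 302 to 329 CPM unfed and 209 to 225 CPM fed at ZT18, and to 356 to 367 CPM and 259 to 274 CPM at ZT22. Hepatocyte markers overlapped at ZT22, with 91151 to 122865 CPM unfed and 104372 to 117870 CPM fed. The part of cell composition in the food differences of members was not tested.

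As a mean over the 4 night hours, 17 of 40 members were higher in fed livers and 2 were lower, beside 17.5% of all genes called higher and 17.9% lower, with a median of 0.16 against 0.008 over all genes. It was above 0 in 33 members, beside 51.3% of all genes. No member had fed and unfed libraries apart in the same direction at all 4 hours, beside 0.97% of genes upward and 1.8% downward. Nop56 and Nop58, Dkc1 and Nhp2, Nolc1, 8 of the 14 40S factors, Rrp1b, Nop2 and Noc3l, and Mybbp1a were higher. Rrp1b had the largest mean difference, 0.49 ± 0.09 (edgeR adjusted p = 9.01e-05). Nop56 followed at 0.42 ± 0.09 (adjusted p = 0.000794), with Nop58 at 0.39, while Mybbp1a had 0.33 ± 0.06 (adjusted p = 0.000159) and Nhp2 0.29 ± 0.06 (adjusted p = 0.00032). Npm1 fell by 0.27 (± 0.06, adjusted p = 0.000475). Ncl fell by 0.14 (± 0.05, adjusted p = 0.0302), a call that was lost in 20 of the alternatives, among them at -0.10 (adjusted p = 0.143) without fed ZT14 replicate 1 and unfed ZT18 replicate 3. Without that pair the count of 19 in either direction was 18. A food difference that changed among the 4 hours was called for Noc2l, Npm1 and Nop14, beside 8.1% of all genes, and without the same pair of libraries it was called for 3 members too.

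**Figure D4:**
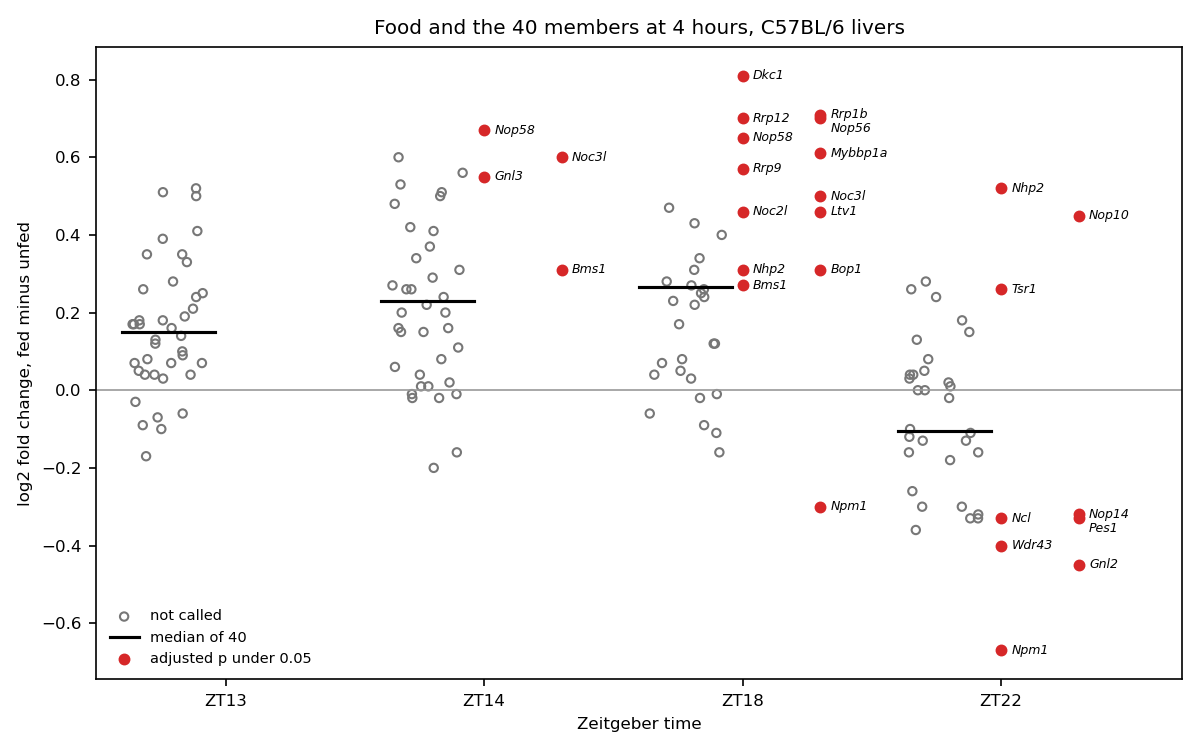
Log2 difference between fed and unfed C57BL/6 livers for each of the 40 members at 4 hours; filled points with names passed the test, and bars give the median. The medians were 0.15, 0.23, 0.26 and -0.11, with 0, 4, 14 and 9 named members.

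The comparison of CRE with GFP livers addresses whether members depend on GR in hepatocytes. At single hours at most 1 member was called in edgeR. At ZT10 0 of 40 were called in edgeR and 0 in DESeq2, beside 0.694% of all genes, with 2 at an unadjusted p under 0.05. The counts in edgeR were also 0 at ZT13 (beside 5.04%), ZT14 (1.57%), ZT18 (0.102%) and ZT22 (0.146%), with 6, 4, 1 and 1 members at an unadjusted p under 0.05. DESeq2 called 3 members at ZT13, beside 6.89% of all genes. It called 0 at ZT14 (beside 2.76%), ZT18 (0.509%) and ZT22 (0.597%). At ZT12 Polr1a fell, 1 of 40 members, beside 2.25% of all genes called lower and 1.5% higher. The median member was -0.18 at ZT12 and -0.13 at ZT13, against 0.011 and 0.001 over all genes. Every CRE library was below every GFP library in 13 members at ZT12, beside 11.0% of all genes, and in 8 at ZT13, beside 10.9%.

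Polr1a had 59.8, 62.3 and 52.7 CPM in GFP livers at ZT12 and 40.7, 33.0 and 42.4 CPM in CRE livers. The 2 groups were well apart, and it fell by 0.59 (± 0.11, n = 3 and 3, edgeR adjusted p = 0.00123). Without the 6 libraries in which the unnamed row took more than 20% of the counts, which include 2 of the GFP ZT12 libraries, the difference was -0.44 (adjusted p = 0.28). At ZT10 Polr1a had 33.4, 45.1 and 42.4 CPM with GFP and 37.7, 36.8 and 35.4 CPM with CRE, overlapping ranges. At ZT13 it had 69.3, 70.6 and 53.7 CPM with GFP and 56.0, 50.9 and 47.8 CPM with CRE. At ZT14 Polr1a had 59.9, 59.9 and 65.2 CPM with GFP and 52.2, 55.6 and 48.6 CPM with CRE. These did not overlap, though it was not called, and 9.52% of all genes had CRE libraries apart and lower there. At ZT18 the viruses gave 41.6, 43.0 and 42.1 CPM against 43.3, 42.2 and 39.5 CPM, overlapping values. Nop58 at -0.59 (adjusted p = 0.152) and Rrp1b at -0.52 (adjusted p = 0.147) were not called at ZT12. At ZT13 Ltv1, a late 40S factor, had 9.96, 10.2 and 9.10 CPM with GFP and 6.49, 7.35 and 6.42 CPM with CRE. These did not overlap, and its difference was -0.53 ± 0.16 (adjusted p = 0.0588), or -0.59 (adjusted p = 0.0436) without GFP fed ZT13 replicate 3. Nolc1 at ZT13 was -0.51 ± 0.16 (adjusted p = 0.0692), or -0.66 (adjusted p = 0.0134) without that library. Without it 4 members in all were called at ZT13.

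Averaged over the 6 hours, 5 of 40 members were lower in CRE livers and none was called higher, beside 6.64% of all genes called lower and 7.92% higher, with 11 members at an unadjusted p under 0.05 and 5 lower and 0 higher in DESeq2. In either direction this was 12.5% of members, beside 14.6% of all genes. Polr1a fell by 0.23 (± 0.04, edgeR adjusted p = 0.00042). Its adjusted p stayed at or below 0.0015 in each alternative that could be run. Leaving out all libraries with a high share of the unnamed row could not be run for this mean, because it empties the GFP ZT10 group. Whether the fall of Polr1a on this mean depends on those libraries together was thus not tested. Nop56 fell by 0.25 (± 0.08, adjusted p = 0.0321), Rrs1 by 0.29 (± 0.09, adjusted p = 0.0323), Nolc1 by 0.21 (± 0.07, adjusted p = 0.0381) and Nop16 by 0.22 (adjusted p = 0.0405). With the share of the unnamed row as a covariate only Polr1a was called, with adjusted p-values of 0.072 for Nop56, 0.0758 for Rrs1 and 0.0828 for Nolc1. The calls other than that of Polr1a lay near the threshold, and leaving out any of several libraries changed the count. It was 1 without GFP unfed ZT10 replicate 2, CRE unfed ZT12 replicate 2, GFP fed ZT14 replicate 3, GFP fed ZT18 replicate 1 or GFP fed ZT22 replicate 2. The CRE effect differed among the 6 hours for 0 members in edgeR and 0 in DESeq2, beside 0.687% of all genes, with 1 member at an unadjusted p under 0.05. Hepatocyte markers were lower in CRE livers as well. On the mean of 6 hours 6 of the 9 fell, beside 6.64% of all genes, with a median of -0.40. At ZT12 they summed to 75854 to 88384 CPM in GFP and 58982 to 65049 CPM in CRE livers, with none of the 9 at 0. The sums were also apart at ZT13, ZT14 and ZT18. They overlapped at ZT10, with 60383 to 71521 CPM in GFP and 50750 to 63383 CPM in CRE livers. At ZT22 they overlapped too, with 65970 to 70758 CPM and 63381 to 71029 CPM. The part of these markers in the differences of members was not tested.

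**Figure D5:**
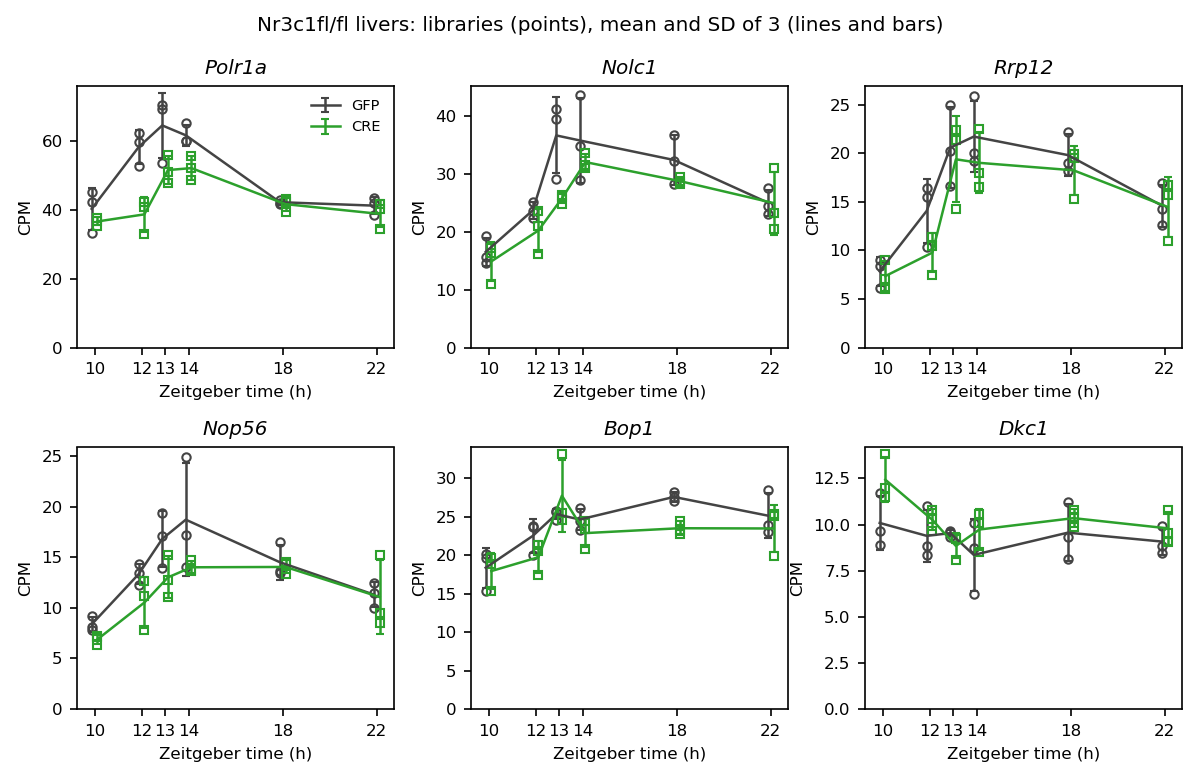
CPM against Zeitgeber time in GFP and CRE livers for 6 members; points are libraries, lines join means of 3 and bars give the SD. Polr1a is lower in CRE livers at ZT12, with 33.0 to 42.4 CPM against 52.7 to 62.3 CPM. Its libraries are also apart at ZT14, where it was not called, and those of both viruses overlap at ZT18.

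Over the 6 hours, 26 members differed in GFP livers, beside 46.9% of all genes, and 25 in CRE livers, beside 41.5%. In GFP livers the smallest adjusted p-values (edgeR F-test) were those of Npm1 (2.66e-07), Polr1a (1.55e-06), Mybbp1a (4.03e-06), Ncl (9.15e-06) and Nolc1 (1.59e-05). In CRE livers they were those of Mybbp1a (1.73e-06), Rrp12 (1.02e-05), Nolc1 (6.65e-05), Npm1 (0.000141) and Heatr1 (0.000201). The group mean was lowest at ZT10 for 25 members with GFP and 22 with CRE, beside 21.7% and 18.4% of all genes. It was highest at ZT13 for 23 members with GFP, beside 15.4%, and for 13 with CRE, beside 13.2%, while a further 15 were highest at ZT14 with CRE, beside 14.8%. Mybbp1a did not follow that course. It had 32.4, 44.7 and 39.2 CPM at ZT10 in GFP livers and 66.4, 66.0 and 69.1 CPM at ZT18, and in CRE livers 44.9, 40.8 and 36.1 CPM and 66.1, 79.4 and 79.6 CPM. With both viruses all ZT18 libraries were above all ZT10 ones, and the mean was highest at ZT18. Npm1 and Ncl were lowest late: Npm1 had 54.2, 50.2 and 54.3 CPM in GFP livers at ZT13 and 34.7, 31.4 and 31.6 CPM at ZT22, and in CRE livers 46.3, 51.0 and 40.5 CPM and 34.8, 34.2 and 37.0 CPM.

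Other genes of the same pathway, taken from lists of factors outside the 40, were counted in the same way. From ZT10 to ZT13 without food, 10 of 40 other 40S factors rose and 16 of 45 other 60S factors rose, beside 9.74% of all genes. Every called gene of both lists was higher, beside 9.12% of all genes called lower, and the medians were 0.22 and 0.29. Among them were Nol10 (0.96 ± 0.14, edgeR adjusted p = 2.68e-05) and Bysl (0.95 ± 0.14, adjusted p = 4.28e-05), both 40S factors, and Mdn1, the large ATPase that remodels 60S precursors (1.04 ± 0.14, adjusted p = 1.24e-05). Of 12 other genes of the polymerase I machinery, Rrn3, the initiation factor that links the polymerase to the promoter, rose by 0.57 (adjusted p = 0.0028) and Polr1e by 0.90 (adjusted p = 0.00444), while Taf1b fell by 0.83 and Ubtf by 0.29. From ZT13 to ZT18 without food 9 of 40 and 20 of 45 fell, beside 7.62% of all genes. In fed livers from ZT13 to ZT22 16 of 40 and 32 of 45 fell, beside 12.8% of all genes. Again all called genes of the 2 lists went 1 way. Pdcd11 fell by 1.07 (± 0.10, adjusted p = 2.06e-08) and Rrn3 by 0.77 in the last comparison. At ZT18, 11 of the other 40S factors were higher and 1 was lower in fed livers, as were 10 and 2 of the other 60S factors. Of 14 further factors of snoRNP assembly and the nucleolus, 2 were higher and 1 was lower at that hour. Of all genes 13.3% were called higher there and 13.1% lower.

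Ribosomal proteins, the parts that stay in the ribosome, were counted too. From ZT10 to ZT13 without food 0 of 79 cytosolic ribosomal protein genes were called in edgeR and 0 in DESeq2, with 0 at an unadjusted p under 0.05 and a median of 0.10. Of all genes 18.9% were called in edgeR. In fed livers at ZT18, 53 of 79 were higher than unfed, beside 13.3% of all genes, and the median was 0.50. From ZT13 to ZT22 in fed livers 6 rose, beside 13.9% of all genes, with a median of 0.13, where the members had -0.48. The difference between the lists was not tested, and ribosomal protein genes have many processed copies in the genome, so that their single values are uncertain. Of 15 genes of the MYC network and growth control, 3 were higher and 8 were lower in fed livers on the mean of 4 hours. Of all genes 17.5% were called higher and 17.9% lower. Mxd1 and Mxi1, antagonists of MYC, fell by 0.54 and 0.39, Rictor, a subunit of mTOR complex 2, fell by 0.40, and Mlx, a partner of MondoA and ChREBP, was higher by 0.31 (adjusted p = 0.00026). Mycn was higher in fed livers at ZT18 (1.6 ± 0.46, adjusted p = 0.011) and at ZT22 (2.01 ± 0.48, adjusted p = 0.00361). From ZT10 to ZT13 without food, where 24 members rose, 2 of these 15 were called, beside 18.9% of all genes. Myc fell by 1.98 (± 0.62, edgeR adjusted p = 0.0263) and Ddit4, an inhibitor of mTOR complex 1, rose by 2.89 (± 0.46, adjusted p = 7.99e-05). In that comparison 2 of the 9 hepatocyte markers rose too, beside 9.74% of all genes. Their sum went from 95070 to 95774 CPM at ZT10 to 96940 to 116951 CPM at ZT13. The part of these markers in the members' rise was not tested.

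A feature of the genes themselves is that several hold small nucleolar RNA genes within their bounds. By RefSeq annotation 7 of 40 members (17.5%) enclose 19 such genes, beside 366 of 20640 protein-coding genes (1.77%). Nop56 encloses 5, Nop58 4, Wdr43 and Gnl3 3 each, Ncl 2, and Dkc1 and Tsr1 1 each. The deposited rows count transcripts of the host genes, and the guide RNAs themselves were not analysed here. Some members overlap a neighbour, such as Nop56 with Idh3b, Dkc1 with Mpp1, Bop1 with Mroh1 and Scx, Noc2l with Klhl17 and Samd11, Gnl3 with Glt8d1 and Polr1a with Gm26628. No source used here says whether the strand was used in counting, so reads of such pairs may not be fully told apart. The annotation also names a pseudogene of Fbl, Fbl-ps2, and Npm1 is known to have processed copies, so the values of both carry the same caution.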

How the data were processed

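The authors deposited raw counts per RefSeq transcript. Per the submitters' processing notes, the tools were DESeq2, HOMER and STAR and the builds rn5 and mm10, listed with neither role nor version. Of the 40458 rows, 40219 matched the RefSeq gene table of GRCm38.p6, and the row with the highest total stood for a gene. Of counts from 1 to 10 in a library, 75.7% to 85.1% were even. Unmatched rows, 0.308% to 28.6% of counts, stayed out of library sizes. The test was edgeR's (4.0.16, under R 4.3.3) quasi-likelihood F-test after filterByExpr and TMM scaling, 1 fit per experiment, with Benjamini-Hochberg adjustment over 14744 and 15712 genes. Single adjusted p-values are edgeR's unless DESeq2 1.42.0 is named. SE is the size of the log2 change over the square root of F. The scripts were tested on simulated data.

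Members and lists were chosen with earlier results of these data known, and of 24 comparisons 6 (those between hours) were added after seeing the data. Full statistics were given to up to 4 members per direction with the smallest p and up to 2 uncalled members with the largest change. The authors' peak lists hold positions only, read as counting from 0. Rat data were not used, since their identifiers are not paired with names.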

Additional observations from a re-analysis of the deposited data

Results flagged for a closer look

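The food difference of 3 members changed among the 4 night hours, by a test of that change itself (edgeR, 3 contrasts). For Noc2l the adjusted p was 0.0231: fed minus unfed was 0.46 at ZT18 and -0.33 at ZT22. At ZT22 it had 41.1, 36.6 and 37.9 CPM unfed and 33.7, 28.4 and 29.5 CPM fed. For Npm1 it was 0.027, with -0.30 at ZT18 and -0.67 at ZT22. For Nop14 it was 0.0385, with 22.9, 22 and 25.7 CPM unfed and 18, 16 and 22.6 CPM fed at ZT22, and 23.4, 26.2 and 23.3 CPM unfed and 27.8, 30.7 and 30.3 CPM fed at ZT14. Each call lay near the threshold and was lost without any of several libraries. The adjusted p was 0.0512 to 0.0648 in 5 of the fits that leave out 1 library for Noc2l, 0.0541 to 0.0881 in 7 for Npm1 and 0.0523 to 0.136 in 13 for Nop14. Gnl2 at 0.0509 and Dkc1 at 0.0577 missed the threshold.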

How the results depend on the processing

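Counts of members called depended on the setting and on single libraries, also in some comparisons where many were called. For food at ZT14 (4 members) DESeq2 gave 8, beside 7.6% of all genes. Leaving out fed ZT14 replicate 1 and unfed ZT18 replicate 3 gave 1 and fitting only the 2 groups gave 11. At ZT18 (14) the last 2 settings gave 9 and 9, and at ZT22 (9) fitting only the 2 groups gave 4. For the change of the food difference among hours (3) no filter gave 5, the replicate block 5 and DESeq2 8. Beside these, 8.39% of all genes were called with the block and 13.2% in DESeq2. For CRE against GFP, ZT12 (1) gave 0 without libraries over 20% in the unnamed row and 2 with only the 2 groups. ZT13 (0) gave 3 in DESeq2, beside 6.89% of all genes, and 1 with the covariate, beside 5.25%. The mean of 6 hours (5) gave 1 with the covariate, beside 12.5%. Leaving out single libraries gave 0 to 0 for food at ZT13, 0 to 2 at ZT14, 5 to 13 at ZT18, 4 to 10 at ZT22, 17 to 21 for the mean and 0 to 6 for its change among hours. It gave 27 to 37 over unfed hours, 26 to 33 over fed hours, 17 to 24 from unfed ZT10 to ZT13, 15 to 25 from unfed ZT13 to ZT18 and 23 to 30 from fed ZT13 to ZT22. For CRE against GFP it gave 0 to 4 at ZT13, 1 to 7 for the mean, 1 to 1 at ZT12 and 0 to 0 elsewhere. It gave 22 to 27 over hours with GFP, 24 to 27 with CRE, and 13 to 23 and 13 to 21 from ZT10 to ZT13. The cause was not tested. Of the named members' values under all alternatives, 1883 kept their call, 138 lost it, 64 gained it and 0 reversed.

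Same-numbered libraries did not deviate together in general. Their deviations correlated at a median of 0.0167 in C57BL/6 livers, with 25 of 108 pairs over 0.1, and 0.014 in Nr3c1fl/fl livers, with 51 of 198. Libraries with different numbers had medians of -0.00431 and -0.00495. A median over all pairs cannot exclude a pairing shared by some groups. With the replicate block Bms1 at ZT14 had an adjusted p of 0.0541. Under the block the only count that moved by more than 1.5 times was that of the change among hours. Leaving out the libraries over 20% in the unnamed row empties the GFP ZT10 group, so comparisons that need it have no value under that setting. Low members such as Rrp1b, at 3.92 to 5.24 CPM in unfed ZT18 livers, rest on the fewest counts.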
